A study of Mus musculus with 17 samples.

Results

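Liver sinusoidal endothelial cells line the hepatic sinusoids. They are pierced by open fenestrae, rest on almost no basement membrane, and clear waste macromolecules and immune complexes from blood through scavenger receptors and lectins. In chronic liver injury these cells can lose their fenestrae and take on features of continuous capillaries, a change called capillarization that is commonly tracked by the appearance of CD34 and of a basement membrane. The 10 genes described here were chosen by name for both sides of that change. Of these, 8 mark sinusoidal identity (Stab1, Stab2, Lyve1, Clec4g, Fcgr2b, Oit3, Gpr182 and Dnase1l3) and 2 mark capillary endothelium (Cd34 and Plvap). Their rows were found by matching the Ensembl gene IDs of the deposited table to symbols, which gave 10 of 10 genes among the 52545 genes of the table.

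The RNA came from liver tissue outside tumours, taken at 32 weeks of age from 17 C57BL/6J males, and each mouse gave 1 library. The 6 CLDN1 mAb mice had received the liver carcinogen diethylnitrosamine (DEN) once in week 1 at 100 mg/kg, a choline-deficient high-fat diet with defined amino acids (CDA-HFD), and 1 intraperitoneal injection per week, over 16 weeks, of 500 µg of CLDN1 mAb, an antibody to the tight junction protein claudin-1. The 6 Vehicle Control mice were treated alike with PBS in place of the antibody. The 5 Regular diet mice had no treatment, so the effects of carcinogen, diet and injections cannot be told apart in any comparison with them.

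Values below are normalized counts per gene, as the authors deposited them. Differences are log2 fold changes with their standard error (SE), on the log2(value + 1) scale, from a limma-trend fit to all 17 libraries and to the 18624 genes that reached 10 in no fewer than 5 libraries. P-values are two-sided and Benjamini-Hochberg adjusted over all 18624 genes, and a gene is called higher or lower at an adjusted p under 0.05. All 10 genes entered the fit, and each was at 10 or more in every library. The spacing of low values put the depth at 27.7 to 59.5 M fragments per library (M, mega). The deposited totals were 35.4 to 42.8 M in CLDN1 mAb, 29.7 to 42.1 M in Vehicle Control and 48.2 to 74.6 M in Regular diet livers, and differed between Vehicle Control and Regular diet (two-sided exact permutation p = 0.00433). Regular diet replicate 1 stood apart, with the highest total and a median correlation across genes of 0.92 with its own group, against 0.981 to 0.983 for the other 4. Its depth was nonetheless the lowest of its group, at 30.4 M fragments. Markers of the labelled tissue were present, with 16 of 16 hepatocyte genes at 10 or more in every library, although Alb was listed at 0 in all of them.

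Against Regular diet livers, the sinusoidal identity genes of Vehicle Control livers split. Clec4g, Oit3, Gpr182 and Dnase1l3 were lower, by log2 fold changes of -1.38 to -1.68, Stab1 was higher by 0.71, and Stab2, Lyve1 and Fcgr2b were not called. The capillary genes split too, since Cd34 was higher by 2.95 while Plvap was not called (-0.13 ± 0.36, adjusted p = 0.795). This made 2 of 10 genes higher and 4 of 10 lower. Among all 18624 genes tested, 50.5% were called in this comparison, 29.8% higher and 20.7% lower, so the 6 of 10 called is a share near that of all genes. The median log2 fold change was -0.24 over the 10 genes and 0.04 over all genes. In whole liver, fewer cells of a type and less RNA per cell cannot be told apart.

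**Figure D1:**
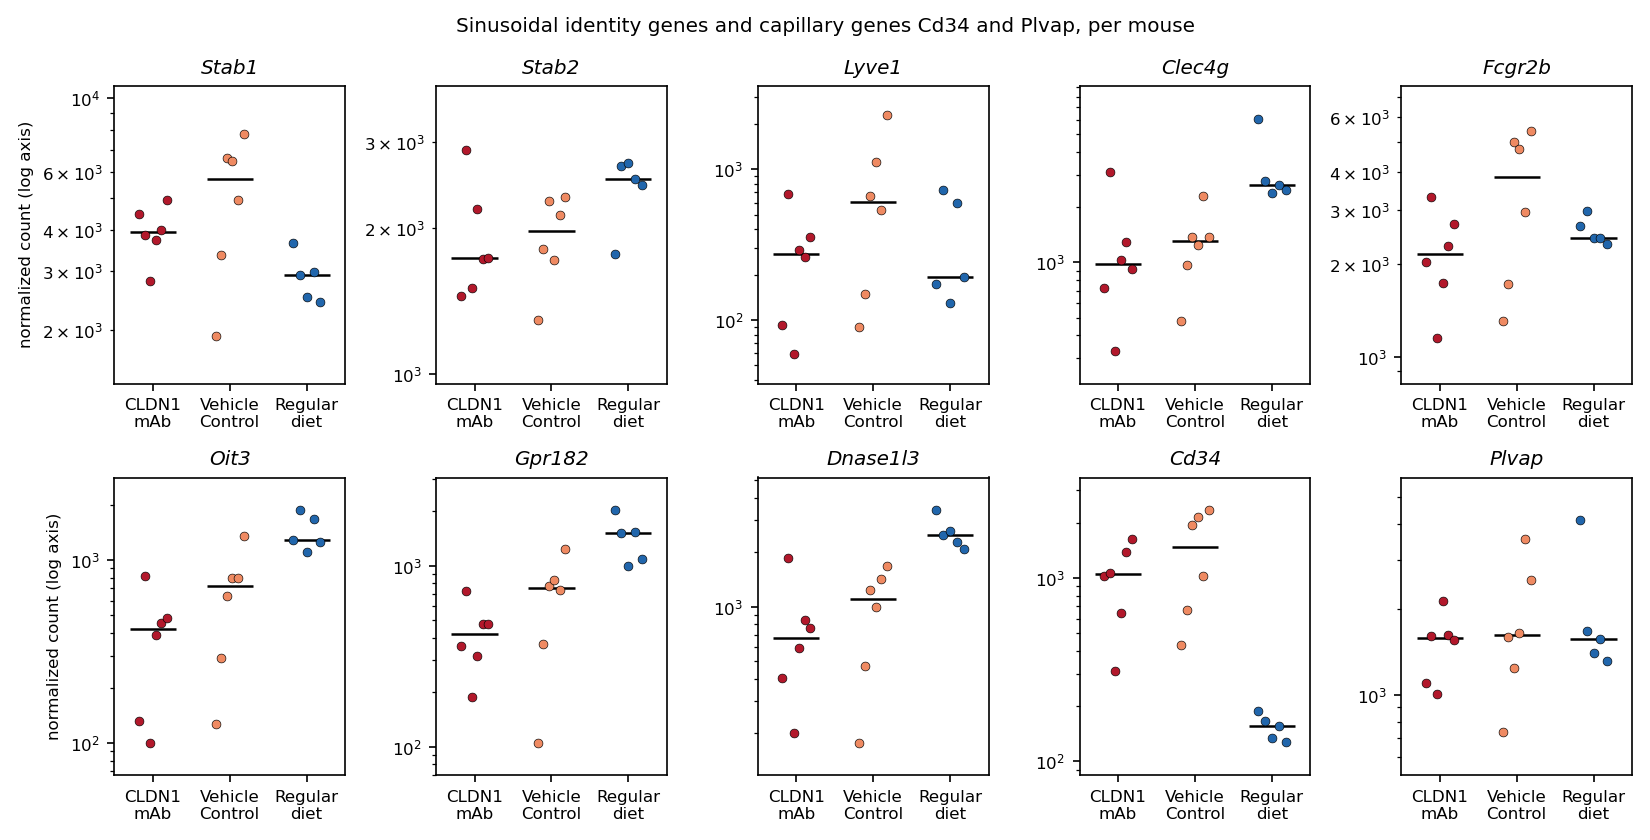
Normalized count of each of the 10 genes in each mouse, on a log axis, for 6 CLDN1 mAb, 6 Vehicle Control and 5 Regular diet livers; each point is 1 library and each bar a group median. Cd34 lay between 309.7 and 2343 in all CLDN1 mAb and Vehicle Control livers and between 127 and 189 in Regular diet livers, whereas Plvap overlapped between all groups.

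Among the scavenger receptors, Stab1 encodes stabilin-1, which takes up modified lipoproteins and matrix fragments and is also found on some macrophages. The gene lies on chromosome 14, from 31139013 to 31168641 on the minus strand of mouse build mm10. Its level was 2797, 3932 and 4915 (lowest, median and highest) in CLDN1 mAb livers and 1918, 5698 and 7809 in Vehicle Control livers, against 3646, 2930.5, 2517, 2979 and 2421 in the 5 Regular diet livers. In Vehicle Control, 4 of 6 livers lay above every Regular diet liver and replicate 1 lay below all of them. The log2 fold change of Vehicle Control over Regular diet was 0.71 ± 0.28 (adjusted p = 0.0440). This call was lost in 14 of 23 alternatives, among them the removal of any of Regular diet replicates 2 to 5 or Vehicle Control replicates 3 to 6. Over the 11 removals of 1 library the log2 fold change was 0.56 to 0.97 with an adjusted p of up to 0.106, and over all alternatives the adjusted p reached 0.552. In CLDN1 mAb, 5 of 6 livers lay above every Regular diet liver, with a difference of 0.45 ± 0.28 that did not pass (adjusted p = 0.228). Stab1 shared 112 exon bases with Nt5dc2 on the opposite strand. Likewise Fcgr2b shared 155 with Gm38204, Cd34 148 with Gm16897, Clec4g 146 with Gm16553, Stab2 141 with Gm16268 and Gpr182 74 with Zbtb39. Reads from these stretches cannot be told apart, since no strand setting is stated.

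Stab2, which encodes stabilin-2, the main hyaluronan clearance receptor of sinusoidal endothelium, varied least among Vehicle Control livers (coefficient of variation 20.3%). The gene spans 86841198 to 87008025 on chromosome 10, minus strand. It stood at 1448, 1730.4 and 2892 in CLDN1 mAb livers and 1295, 1968 and 2312 in Vehicle Control livers, against 1764, 2684, 2716, 2524 and 2455 in Regular diet livers. All 6 Vehicle Control livers were below 4 of the 5 Regular diet livers, and Regular diet replicate 1 was the exception. The difference of Vehicle Control from Regular diet was -0.35 ± 0.19 (adjusted p = 0.144), and -0.46 without Regular diet replicate 1 (adjusted p = 0.0471). In CLDN1 mAb against Regular diet it was -0.37 ± 0.19 (adjusted p = 0.142), and -0.48 without that library (adjusted p = 0.0451) or -0.50 without CLDN1 mAb replicate 2 (adjusted p = 0.0379).

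Lyve1, a hyaluronan receptor of sinusoidal and lymphatic endothelium, had the widest range of the 10 genes in each group (chromosome 7, 110850607 to 110863239, minus strand). Its level was 59.2, 275 and 679.8 in CLDN1 mAb livers and 90.0, 601 and 2279 in Vehicle Control livers, against 172, 727, 129.5, 597 and 192 in Regular diet livers. The highest Vehicle Control liver was 25.3 times the lowest, and the groups overlapped throughout. The difference of Vehicle Control from Regular diet was 0.75 ± 0.78 (adjusted p = 0.446), with a 95% interval of -0.89 to 2.39. In the Vehicle Control livers of library codes 36 to 42 alone it was called higher (1.96, adjusted p = 0.0189). Of 8 lymphatic endothelial markers, 3 were higher in Vehicle Control and 0 lower, and their summed level was 4653 to 9793 in CLDN1 mAb, 6300 to 8955 in Vehicle Control and 2742 to 10124 in Regular diet livers. The most abundant of them was Prox1, which hepatocytes also express (3672 ± 731 in Vehicle Control and 5719 ± 2745 in Regular diet, SD, n = 6 and 5) and which was not called. Pdpn, the podoplanin gene, was higher in Vehicle Control (3.51, adjusted p = 5.55e-07), as was the transcription factor gene Tbx1 (3.73). Tbx1 was near the floor in Regular diet livers (2.71 ± 1.34, against 51.4 ± 21.1 in Vehicle Control, SD), so its fold change rests on low values. The defining markers Pdpn and Prox1 were at 0 in no group, and the part of lymphatic vessels in the Lyve1 values was not tested.

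Fcgr2b encodes the inhibitory Fc gamma receptor, which clears small immune complexes in liver and is also found on B cells and macrophages (chromosome 1, 170958617 to 170976547, minus strand). It was 1153, 2169 and 3297 in CLDN1 mAb livers and 1313, 3845 and 5401 in Vehicle Control livers, against 2656, 2988, 2439.9, 2437 and 2333 in Regular diet livers. The Regular diet livers lay within a factor of 1.28 of each other, while 3 Vehicle Control livers were above and 2 below all of them. The difference of Vehicle Control from Regular diet was 0.27 ± 0.34 (adjusted p = 0.540). It was called higher with array quality weights (0.73, adjusted p = 0.0105) and in library codes 36 to 42 alone (0.72, adjusted p = 0.0146). Macrophage markers were higher for 13 of 14 genes, with summed levels of 86736 to 139016 in CLDN1 mAb, 56262 to 177322 in Vehicle Control and 9276 to 36577 in Regular diet livers. Their defining genes Adgre1 and Cd68 were at 0 in no group. Of 10 B cell and plasma cell markers 2 were higher, with sums of 1328 to 3761 in CLDN1 mAb, 809 to 12807 in Vehicle Control and 487 to 1104 in Regular diet livers, and the defining genes Ms4a1 and Cd79a were at 0 in no group. The part of these cells in the Fcgr2b and Stab1 values was not tested. Of the 50-base stretches in Fcgr2b transcripts, 6.95% also occur in other genes, mainly Fcgr3, so its counts are uncertain where reads could be shared.

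Clec4g, which encodes LSECtin, a C-type lectin of sinusoidal endothelium and some macrophages, was lower in both DEN groups (chromosome 8, 3707064 to 3720651, minus strand). Its level was 329, 978 and 3124 in CLDN1 mAb livers and 478, 1309 and 2288 in Vehicle Control livers, against 6078, 2774, 2396, 2631 and 2466 in Regular diet livers. All 6 Vehicle Control livers lay below all 5 Regular diet livers, by a small margin (2288 against 2396), as did 5 of 6 CLDN1 mAb livers. CLDN1 mAb replicate 2, at 3124, was above 4 of the 5 Regular diet livers. Among all genes tested, 10.5% had every Vehicle Control liver below every Regular diet liver, and 19.1% had every one above. The log2 fold change was -1.39 ± 0.46 in Vehicle Control (adjusted p = 0.0171) and -1.62 ± 0.46 in CLDN1 mAb (adjusted p = 0.00875), each against Regular diet.

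The other 3 lower genes encode a receptor and secreted proteins. Dnase1l3 encodes a secreted nuclease that digests DNA in blood-borne particles and is also made by macrophages and dendritic cells (chromosome 14, 7964533 to 7994573, minus strand). It was 201, 676 and 1862 in CLDN1 mAb livers and 178, 1109 and 1683 in Vehicle Control livers, against 3422, 2488, 2615, 2273 and 2091 in Regular diet livers. Every liver of both DEN groups lay below every Regular diet liver. The log2 fold change was -1.68 ± 0.54 in Vehicle Control (adjusted p = 0.0148) and -2.03 ± 0.54 in CLDN1 mAb (adjusted p = 0.00610). Of 9 Kupffer cell markers 6 were lower and 0 higher in Vehicle Control, with sums of 21082 to 41346 in CLDN1 mAb, 17394 to 35039.8 in Vehicle Control and 32319 to 61125 in Regular diet livers. C6 weighed heavily in these sums, at a mean of 8407 in Vehicle Control and 21142 in Regular diet livers (-1.73). Cd163 fell much further, from 660 in Regular diet to 20.4 in Vehicle Control livers (-4.86), as did Timd4, from 438 to 22.2 (-4.52). The defining genes of the list, Clec4f and Vsig4, were at 0 in no group, and the part of Kupffer cells in the Clec4g and Dnase1l3 values was not tested. In CLDN1 mAb over Vehicle Control, C6 stood at 1.09 and Clec4f, Vsig4, Cd163 and Timd4 at -0.66 to -0.10, with 0 called. Hepatocyte markers had a median of 0.76 in that comparison and of -1.67 in Vehicle Control over Regular diet. The part of hepatocytes in the C6 values, and so in these sums, was not tested.

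Gpr182, an atypical chemokine receptor of sinusoidal and lymphatic endothelium (chromosome 10, 127747276 to 127751732, minus strand), was 188, 418 and 724 in CLDN1 mAb livers and 105, 755 and 1231 in Vehicle Control livers, against 2039, 1525, 994, 1537 and 1089 in Regular diet livers. All CLDN1 mAb livers and 5 of 6 Vehicle Control livers lay below every Regular diet liver. The log2 fold change was -1.38 ± 0.48 in Vehicle Control (adjusted p = 0.0243) and -1.83 ± 0.48 in CLDN1 mAb (adjusted p = 0.00603), and the Vehicle Control call was lost without Regular diet replicate 1 (-1.24, adjusted p = 0.0517). Oit3 encodes a secreted protein with a zona pellucida domain (chromosome 10, 59422958 to 59441778, minus strand). It was 101, 420.3 and 818 in CLDN1 mAb livers and 127, 716 and 1357 in Vehicle Control livers, against 1287, 1874, 1105, 1679 and 1249.6 in Regular diet livers. Vehicle Control replicate 6 was above 3 of the Regular diet livers, and the other 5, like all 6 CLDN1 mAb livers, were below each of them. The log2 fold change was -1.43 ± 0.56 in Vehicle Control (adjusted p = 0.0419) and -2.17 ± 0.56 in CLDN1 mAb (adjusted p = 0.00501). The Vehicle Control call of Oit3 was lost in 11 of 23 alternatives, among them the removal of any Regular diet liver or of Vehicle Control replicate 1, 2 or 3 (log2 fold change -1.70 to -1.02, adjusted p up to 0.0940 over the 11 removals).

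Cd34, a sialomucin of continuous capillary endothelium that is also found on fibroblasts and haematopoietic progenitors, showed the largest difference of the 10 genes (chromosome 1, 194938819 to 194961279, plus strand). Its level was 309.7, 1045 and 1632 in CLDN1 mAb livers and 433, 1480.0 and 2343 in Vehicle Control livers, against 189, 167, 134, 157 and 127 in Regular diet livers. Every liver of both DEN groups lay above every Regular diet liver. The log2 fold change was 2.95 ± 0.44 in Vehicle Control (adjusted p = 2.67e-05), a 7.75-fold difference, and 2.53 ± 0.44 in CLDN1 mAb (adjusted p = 0.000187). It passed in 23 of 23 alternatives of either comparison. Portal fibroblast and mesothelial markers were higher for 9 of 12 genes in Vehicle Control, with sums of 4051 to 21479 in CLDN1 mAb, 5233 to 33206 in Vehicle Control and 998 to 1798 in Regular diet livers. Their defining genes Dpt and Pi16 were at 0 in no group and were both higher (3.75 and 1.07). Of 8 haematopoietic progenitor and mast cell markers 2 were abundant enough to test and 0 were called, with sums of 90.7 to 433 in CLDN1 mAb, 130 to 523 in Vehicle Control and 157 to 309.8 in Regular diet livers. The part of fibroblasts in the Cd34 values was not tested.

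Plvap encodes the protein of the diaphragms that close fenestrae and caveolae (chromosome 8, 71497765 to 71511752, minus strand). It was 1004, 1581 and 2137 in CLDN1 mAb livers and 735, 1626 and 3558 in Vehicle Control livers, against 4137, 1673, 1408, 1577 and 1315 in Regular diet livers. The groups overlapped, and Regular diet replicate 1 was far above the other 4 of its group. The difference of Vehicle Control from Regular diet was -0.13 ± 0.36 (95% interval -0.87 to 0.62) and 0.17 without that library (adjusted p = 0.678). In CLDN1 mAb it was -0.32 ± 0.36 (adjusted p = 0.506). Per kilobase of exon, Plvap had the second highest mean of the 10 genes in Regular diet livers.

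Promoter windows were available for 5 of the 10 genes, as the 250 bases before the RefSeq transcription start in build GRCm38.p6. The windows of the called genes Stab1 (chr14:31168642-31168891, minus strand), Clec4g (chr8:3720652-3720901, minus strand) and Cd34 (chr1:194938571-194938820, plus strand) are shown because these genes differed in opposite directions between Vehicle Control and Regular diet livers. Each is written 5′ to 3′ on the gene's strand, with capitals for a match to a searched motif.
Stab1: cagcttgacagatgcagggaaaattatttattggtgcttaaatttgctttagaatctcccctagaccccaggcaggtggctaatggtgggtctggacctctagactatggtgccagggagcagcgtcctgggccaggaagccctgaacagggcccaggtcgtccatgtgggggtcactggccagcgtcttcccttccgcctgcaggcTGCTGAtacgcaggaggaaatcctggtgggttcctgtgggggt
Clec4g: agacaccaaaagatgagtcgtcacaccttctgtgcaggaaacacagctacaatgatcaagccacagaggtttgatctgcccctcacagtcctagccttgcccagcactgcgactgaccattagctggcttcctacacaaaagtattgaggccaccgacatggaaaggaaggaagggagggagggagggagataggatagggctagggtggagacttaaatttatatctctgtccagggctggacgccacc
Cd34: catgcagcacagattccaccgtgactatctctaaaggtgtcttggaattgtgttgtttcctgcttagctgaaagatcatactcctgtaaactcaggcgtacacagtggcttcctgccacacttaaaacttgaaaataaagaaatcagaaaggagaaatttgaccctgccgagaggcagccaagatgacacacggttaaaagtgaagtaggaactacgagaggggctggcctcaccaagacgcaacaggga
The motifs were searched on both strands and compared with 32851 RefSeq promoter windows of the same length. AGATAA, read by GATA factors, is in 9.99% of those windows. CCGGAA, read by ETS factors, is in 12%. TGCTGA, a half-site of MAF factors, is in 16.1%, and ACAAAG, read by SOX factors, in 16.5%. The only match in the 5 windows, which include those of Stab2 and Fcgr2b, was TGCTGA in Stab1, with its first base 43 bases before the start.

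**Figure D2:**
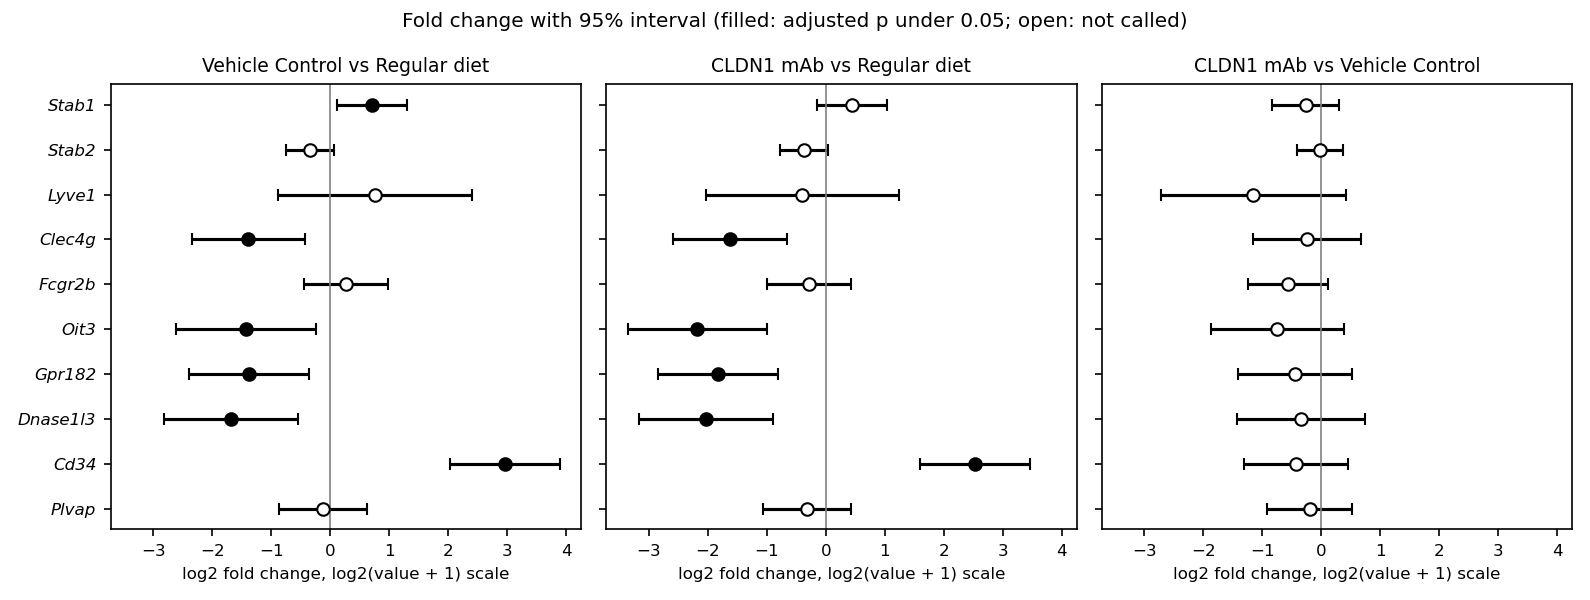
Log2 fold change with 95% interval of the 10 genes on the log2(value + 1) scale, for Vehicle Control over Regular diet, CLDN1 mAb over Regular diet and CLDN1 mAb over Vehicle Control, from 6 CLDN1 mAb, 6 Vehicle Control and 5 Regular diet mice; filled points have an adjusted p under 0.05. Cd34 lay at 2.95 and 2.53 above Regular diet, and all 10 intervals of CLDN1 mAb over Vehicle Control include 0.

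Against Regular diet, CLDN1 mAb livers had Cd34 higher and Clec4g, Oit3, Gpr182 and Dnase1l3 lower, and 5 of the 10 genes were not called. In this comparison 38.9% of all genes tested were called, 24.8% higher and 14.1% lower. Groups that did not overlap were found for 18.6% of all genes in the higher direction and 10.4% in the lower, and for 1 and 3 of the 10 genes. Oit3, Gpr182, Dnase1l3 and Cd34 passed in 23 of 23 alternatives. Clec4g passed in 20, but did not pass when every library was given the same total (-1.18, adjusted p = 0.0505), relative to pan-endothelial genes (-0.91, adjusted p = 0.104) or with library codes 25 to 30 of the DEN mice alone (-1.74, adjusted p = 0.0527). This comparison shares its Regular diet libraries with the one above.

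Between CLDN1 mAb and Vehicle Control livers, 0 of the 10 genes were called, as were 0% of all genes tested (limma-trend). At an unadjusted p under 0.05 the counts were 0 of 10 genes and 7.47% of all genes. All 10 log2 fold changes were below 0, the lowest for Lyve1 (-1.15 ± 0.74, 95% interval -2.71 to 0.41) and the highest for Stab2 (-0.02 ± 0.18, -0.41 to 0.36). The median was -0.39 over the 10 genes and -0.05 over all genes. The intervals were wide: for Cd34, at -0.43 ± 0.42, it ran from -1.32 to 0.46, and for Oit3, at -0.75 ± 0.54, from -1.87 to 0.38. The groups overlapped for all 10 genes, and were apart for 0.0644% of all genes in the higher direction and 0.258% in the lower. With array quality weights, which let libraries count unequally and gave 0.0851 to Regular diet replicate 1 and 0.175 to Vehicle Control replicate 1, 2512 genes were called higher and 2798 lower. In that fit Stab1 (-0.65, adjusted p = 0.0115), Fcgr2b (-1.01, adjusted p = 0.00807), Gpr182 (-0.98, adjusted p = 0.0260) and Cd34 (-0.96, adjusted p = 0.0429) were called lower.

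Within the DEN groups the same few libraries were lowest or highest for most of the 10 genes. Vehicle Control replicate 1 was the lowest of its group for 10 of 10 genes and replicate 6 the highest for 8, and CLDN1 mAb replicate 3 was the lowest for 9 and replicate 2 the highest for 7. The mean log2 level of 18 pan-endothelial genes, such as Pecam1 and Cdh5, was likewise lowest in Vehicle Control replicate 1 (7.30) and highest in replicate 6 (9.98). By group it was 8.52 ± 0.68 in CLDN1 mAb (SD, n = 6), 9.0 ± 1.01 in Vehicle Control (n = 6) and 9.24 ± 0.23 in Regular diet (n = 5). By a two-sided exact permutation test it differed between CLDN1 mAb and Regular diet (p = 0.0346) but not detectably between Vehicle Control and Regular diet (p = 0.680) or CLDN1 mAb and Vehicle Control (p = 0.364). The library codes of the samples fall into blocks of 25 to 30, 31 to 35 (Regular diet only) and 36 to 42, and the labels do not say what a code stands for. In any comparison with Regular diet, code block and group therefore cannot be told apart, and fits to 1 block of the DEN mice do not change this. Vehicle Control livers of codes 25 to 30 differed from Regular diet by -2.43 for Dnase1l3, -1.82 for Clec4g and 2.42 for Cd34, and those of codes 36 to 42 by -0.93, -0.95 and 3.49, all past the threshold. Oit3 (-2.29 against -0.57) and Gpr182 (-2.15 against -0.61) passed only in the codes 25 to 30 (adjusted p under 0.05), and Stab1 (0.29 against 1.13), Lyve1 (-0.45 against 1.96) and Fcgr2b (-0.19 against 0.72) only in the codes 36 to 42, all 3 higher. In each DEN group the codes 25 to 30 are only replicates 1 to 3, and the codes 36 to 42 only replicates 4 to 6. A call in 1 block and not in the other does not test a difference between the blocks. Between CLDN1 mAb and Vehicle Control, the 10 differences lay between -0.41 and 0.23 in the codes 25 to 30 and between -1.89 and -0.12 in the codes 36 to 42, with 0 called in either.

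To set each gene against endothelium in general, the mean log2 level of the 18 pan-endothelial genes was subtracted in each library and the fit repeated. Relative to them, Cd34 was higher in Vehicle Control than in Regular diet livers by 3.19 ± 0.34 (adjusted p = 3.64e-08). Dnase1l3 (-1.45), Oit3 (-1.19), Gpr182 (-1.15) and Clec4g (-1.15 ± 0.41, adjusted p = 0.0364) were lower. Stab1 stood at 0.94 and did not pass (adjusted p = 0.0711). In this fit 23.7% of all genes were called higher and 3.26% lower, around an all-gene median of 0.28. In CLDN1 mAb against Regular diet, Cd34 (3.24) and Stab1 (1.16, adjusted p = 0.0213) were higher and Oit3 (-1.46), Dnase1l3 (-1.31) and Gpr182 (-1.11) lower, with 29% and 0.94% of all genes called around a median of 0.72. Between CLDN1 mAb and Vehicle Control 0 of 10 genes and 0% of all genes were called, with a median difference of 0.094 over the 10 genes and 0.44 over all genes. The standard error of Oit3 was 0.36 in this fit and 0.56 in the one above, whereas that of Stab2 was 0.43 and 0.19. The subtraction thus moved the all-gene median and changed the precision of genes unequally. The all-gene shares of this fit are therefore not a like base for the 10 genes.

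The lower calls of Vehicle Control against Regular diet depended on the scaling of the libraries. When each library was given the same total, the median of all genes moved to 0.65 in Vehicle Control over Regular diet, against 0.04 as deposited. Dnase1l3 (-1.06), Oit3 (-0.80), Clec4g (-0.76) and Gpr182 (-0.76) were still below 0 and further below that median, and 0 of the 4 passed. Cd34 (3.58) and Stab1 (1.33, adjusted p = 0.00339) were higher under that scaling. With quantile normalization or median-of-ratios factors, all 4 lower genes and Cd34 kept their call. In CLDN1 mAb against Regular diet, Oit3 (-1.73, adjusted p = 0.0341), Dnase1l3 (-1.59, adjusted p = 0.0385) and Gpr182 (-1.39, adjusted p = 0.0470) still passed with the same total per library.

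**Figure D3:**
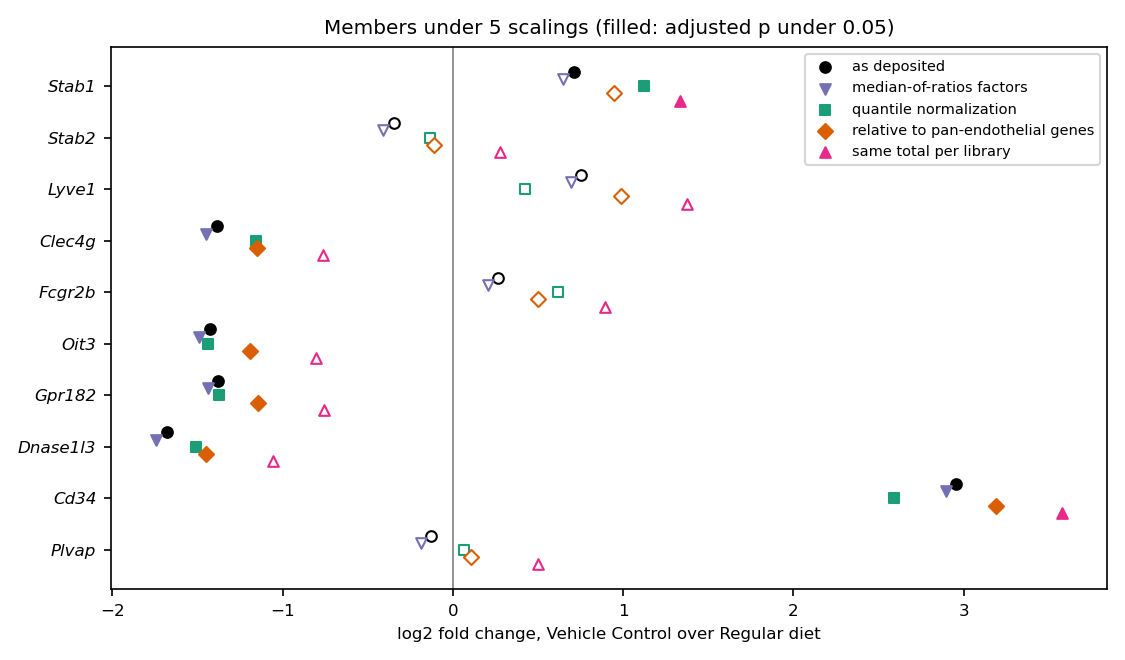
Log2 fold change of Vehicle Control over Regular diet for the 10 genes as deposited and under 4 other scalings; filled symbols have an adjusted p under 0.05. Cd34 lay between 2.59 and 3.58 and was called each time, and the 4 lower genes lost their call with the same total per library.

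A ratio of 2 genes within a library does not depend on its scaling. The ratio of Cd34 to Stab2 was 0.206 to 0.942 in CLDN1 mAb and 0.334 to 1.25 in Vehicle Control livers, against 0.0493 to 0.107 in Regular diet livers. The ratio of Cd34 to Clec4g was 0.342 to 1.77 in CLDN1 mAb and 0.449 to 1.73 in Vehicle Control livers, against 0.0311 to 0.0601 in Regular diet livers. Both ratios were thus apart from Regular diet in all livers of both DEN groups. With each of the 8 sinusoidal genes as denominator, the Cd34 ratio was apart from Regular diet for 8 of 8 in CLDN1 mAb and for 7 of 8 in Vehicle Control, the exception being Lyve1 (1.03 to 4.81 against 0.229 to 1.1). All of these ratios share Cd34, which was apart by itself, and with every other tested gene as denominator 56.5% of Cd34 ratios lay above Regular diet in CLDN1 mAb and 64.7% in Vehicle Control. Between CLDN1 mAb and Vehicle Control the Cd34 ratio was apart for 0 of 8, and above for 0.0161% of all denominators. The Plvap ratio was apart from Regular diet for 1 of 8 in each DEN group, for Gpr182 in CLDN1 mAb (2.22 to 6.71 against 1.03 to 2.03) and for Clec4g in Vehicle Control (0.898 to 1.86 against 0.533 to 0.681). Over all denominators the Plvap ratio was above Regular diet for 1.18% in CLDN1 mAb and 1.77% in Vehicle Control.

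**Figure D4:**
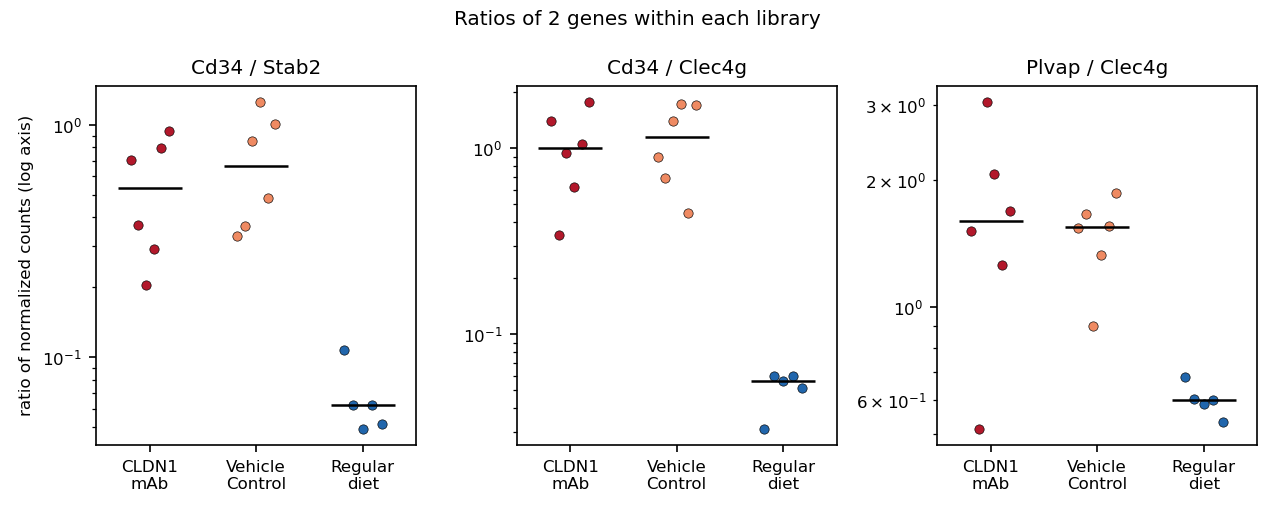
Ratio of the normalized counts of 2 genes within each library, on log axes, for 6 CLDN1 mAb, 6 Vehicle Control and 5 Regular diet livers; points are libraries and bars group medians. The Cd34 ratios of all CLDN1 mAb and Vehicle Control livers lay above those of Regular diet livers, while Plvap over Clec4g overlapped between CLDN1 mAb (0.514 to 3.05) and Regular diet (0.533 to 0.681).

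The order of the 10 genes by mean level per kilobase of exon differed between groups. In CLDN1 mAb livers it was Plvap (757), Clec4g (503), Stab1 (385), Fcgr2b (381), Stab2 (219), Dnase1l3 (151), Oit3 (142), Cd34 (138), Gpr182 (107) and Lyve1 (99.1). In Vehicle Control livers Plvap (950.4) came first, followed by Fcgr2b (608), Clec4g (523) and Stab1 (504), and Gpr182 (171) came last. In Regular diet livers Clec4g (1328) and Plvap (1018) came first, then Oit3 (516), Dnase1l3 (500.5), Fcgr2b (444), Gpr182 (363), Stab1 (282), Stab2 (277), Lyve1 (125) and Cd34 (21.2). Cd34 was the only gene of the Regular diet group whose range, 17.4 to 25.9 per kilobase, overlapped with that of no other. All other neighbours in that order overlapped, as did every pair of neighbours in both DEN groups.

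Other genes that endothelial cells are known for were described from lists of named markers. Their RNA was read in whole liver, and the part of other cell types in the values of these lists was not tested. Of 26 other sinusoidal endothelial genes, 10 were lower and 3 higher in Vehicle Control than in Regular diet livers, with a median log2 fold change of -0.34 against 0.04 over all genes. Ehd3, a membrane trafficking gene enriched in sinusoidal endothelium, was lower, with a log2 fold change of -1.53 (1464 ± 497 in Vehicle Control and 4033 ± 527 in Regular diet, SD, n = 6 and 5), as was the C-type lectin Cd209b (-2.61). Cd209b was near the floor, at 3.80 ± 3.50 in Vehicle Control and 25.4 ± 15.7 in Regular diet livers (SD), so its fold change rests on low values. The transcription factor Tfec was higher (1.07), and the mannose receptor Mrc1 (-0.20) and the platelet-activating lectin receptor Clec1b (0.08) were not called. The summed level of the list was 9253 to 21061 in CLDN1 mAb, 10532 to 27979 in Vehicle Control and 19682 to 27791 in Regular diet livers. Of 18 pan-endothelial genes, 2 were higher, Cd93 (2.53) and Ecscr (1.47), and 2 lower, Ptprb (-1.49) among them, while Pecam1 (-0.24) and Cdh5 (-1.02, adjusted p = 0.114) were not called.

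Genes of continuous capillaries and of the basement membrane were mostly higher or not called. Of 25 other capillary and continuous endothelial genes, 13 were higher and 0 lower in Vehicle Control, with a median of 1.27. Cd200, a surface glycoprotein that restrains myeloid cells, was 947 ± 524 in Vehicle Control and 45.6 ± 8.92 in Regular diet livers (SD, n = 6 and 5; log2 fold change 4.16, adjusted p = 7.11e-08). The glycerol channel gene Aqp7 (2.62), Ly6a, which encodes Sca-1 (2.33), and the caveolin gene Cav1 (1.27) were higher, and Vwf, the von Willebrand factor gene, was not called (0.73 ± 0.55, adjusted p = 0.285). The summed level of the list nonetheless overlapped, at 16772 to 42202 in CLDN1 mAb, 15833 to 56514 in Vehicle Control and 20490.5 to 34924 in Regular diet livers. Of 14 basement membrane genes 11 were higher and 2 lower, with a median of 1.44. The collagen IV genes Col4a1 and Col4a2 were each higher by 2.0, the nidogen gene Nid1 by 2.45 and Sparc by 2.09, whereas Col18a1, which hepatocytes also express, was lower (-1.54). Portal fibroblast and mesothelial markers (9 of 12 higher, median 2.59) and macrophage markers (13 of 14 higher, median 2.27) were also higher in the same livers. The part of such cells in the capillary and basement membrane values was not tested. Of 11 stellate cell markers 3 were higher and 3 lower, and of 16 hepatocyte markers 14 were lower and 0 higher. In CLDN1 mAb against Vehicle Control livers 0 genes of any of these lists were called.

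**Figure D5:**
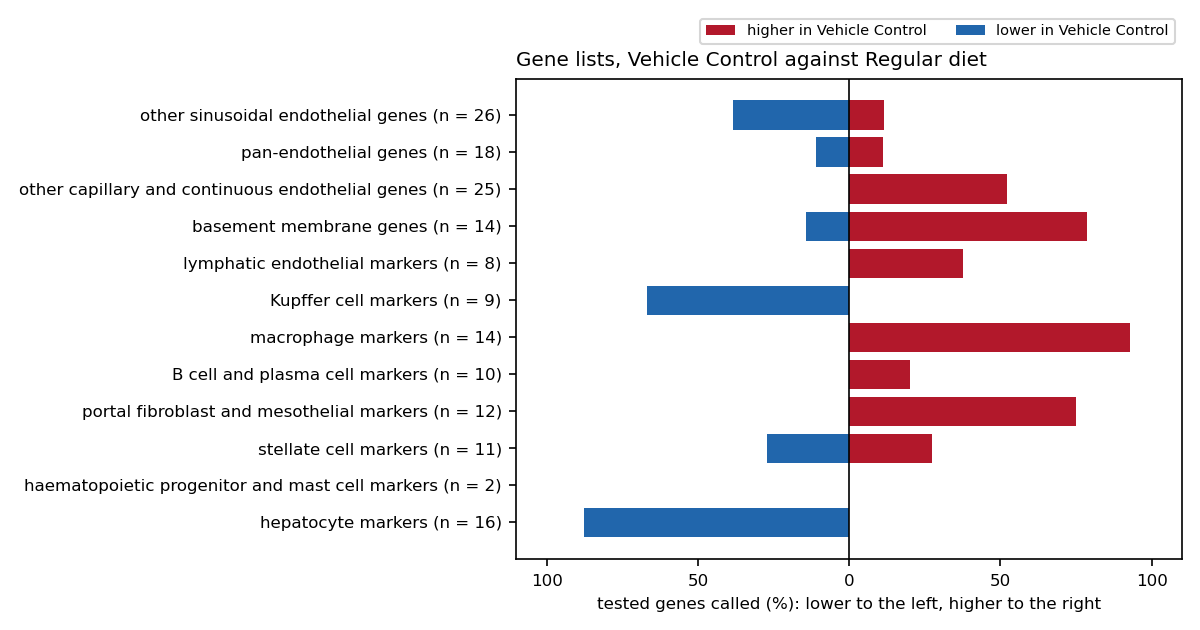
Share of the tested genes of each marker list called higher (right) or lower (left) in Vehicle Control than in Regular diet livers, at an adjusted p under 0.05. Of the 25 other capillary genes 13 were higher and 0 lower, and of the 26 other sinusoidal genes 3 were higher and 10 lower, against 29.8% and 20.7% of all genes.

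Among the genes tested, those whose log2 values followed Stab2 best over the 17 libraries, after each group's mean was subtracted, were Nsf, Clec16a, Pip4k2c, Stim1 and Lipa, with Pearson's r of 0.834 to 0.868 and Spearman's rho of 0.765 to 0.882. For Plvap they were B4galnt1, Emc10, Plin3, Med9 and Fam207a, with r of 0.889 to 0.911 and rho of 0.703 to 0.892. They were picked as the highest of all genes tested, and the libraries share their depth and cell makeup, so these values describe likeness only. None of these genes belongs to the lists above.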

How the data were processed

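Each gene has 1 deposited signal value in every library, a count that the authors had scaled with cuffnorm per the labels. The submitters' processing notes name Cufflinks 2.2.1 and mouse build mm10. How reads were aligned, which annotation release and strand setting were used, and which scaling was chosen is not given in the sources used here. Since the signal is not in whole reads, no count model was used. Groups were taken from the titles. GENCODE models on that build gave symbols, coordinates and exon lengths, and Stab2 was matched by its ID without the version.

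The fit was computed in R 4.3.3 with limma 3.58.1 (limma-trend with group as the only term; pseudocount 1; genes kept that reached 10 in no fewer than 5 libraries), and was tested on simulated data. Exact permutation tests and tables used Python 3.11.15 and scipy 1.17.1. The deposited signal limits precision at low values and on scaling, so other pseudocounts, no filter, 4 other scalings, fits to 2 groups, a replicate block, quality weights, library code blocks and the removal of each library were tried. Mice are separate animals per the labels, and p-values measure the spread between them. Mouse numbers of different groups were not treated as pairs, since deviations from group means did not correlate above 0.1 in every pair. The correlations ran from -0.34 (replicate 2 of Vehicle Control and Regular diet) to 0.66 (replicate 6 of CLDN1 mAb and Vehicle Control). A rule that asks for every pair cannot exclude a link in single pairs.

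The 10 genes and the marker lists were chosen with earlier results of these data known, and 1 marker gene is not reported here. Genes named from a list are its first 2 genes and up to 3 further genes with the smallest p in Vehicle Control against Regular diet. Genes most like Stab2 and Plvap are the 5 with the highest Pearson's r.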

Additional observations from a re-analysis of the deposited data

Results flagged for a closer look

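Of 33 sets of values over the mice of a group, 4 had a value farther from its neighbour than Dixon's test at the 95% level allows, where chance flags about 1 in 20. Regular diet replicate 1 accounted for 3 of them. It had the lowest Stab2 of its group at 1763.84, with the other 4 at 2455 to 2716, the highest Clec4g at 6077.62, with the others at 2396 to 2774, and the highest Plvap at 4136.91, with the others at 1315 to 1673. The same library had the highest deposited total, 74.6 M (mega), but the lowest depth of its group, 30.4 M fragments. By the spacing of low values, 1 fragment stood for 2.46 in its deposited values, against 0.875 to 1.53 in the others of its group. The fourth was CLDN1 mAb replicate 2, whose Clec4g of 3123.58 lay above the 329 to 1298 of the other 5 mice of its group.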

How the results depend on the processing

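Cd34 kept its direction and call against Regular diet in all 23 alternatives of either DEN group, as did Oit3, Gpr182 and Dnase1l3 in CLDN1 mAb. Where a result changed, the cause was not tested. In Vehicle Control against Regular diet, the 10 genes had 1 called higher relative to pan-endothelial genes, with median-of-ratios factors, with no filter on low values, in library codes 25 to 30 alone, in a fit to the 2 groups and with the replicate block, 4 in library codes 36 to 42 alone, and 1 to 2 when 1 library was left out. Called lower were 2 in library codes 36 to 42 alone and 0 with the same total per library. Over all genes, 9369 were higher with the same total, against 5547, and 6042 (array quality weights), 607 (relative to pan-endothelial genes), 2274 (library codes 25 to 30) and 1264 (same total) were lower, against 3853. With the replicate block, which uses mouse numbers that share no stated origin, 5393 genes were higher and the 10 genes had 4 called lower. Where a setting has no count over all genes here, its counts of the 10 genes are not read as particular to them.

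Genes that were not called, and Apob, changed sign in some settings. In Vehicle Control against Regular diet, Stab2 was 0.28 with the same total, Lyve1 -0.45 and Fcgr2b -0.19 in codes 25 to 30. In codes 36 to 42 both were called higher (1.96 and 0.72), as was Fcgr2b with quality weights (0.73). Plvap was 0.50 with the same total, 0.066 with quantile normalization, 0.11 relative to pan-endothelial genes, 0.25 with quality weights, 0.43 in codes 36 to 42, and -0.34 to 0.17 with 1 library left out. Mrc1 was 0.43 with the same total, 0.045 with quantile normalization, 0.037 relative to pan-endothelial genes, 0.058 with quality weights, 0.30 in codes 36 to 42 and -0.42 to 0.025 with 1 library left out. Clec1b was -0.19 with quantile normalization, -0.34 in codes 25 to 30 and -0.10 to 0.23 with 1 library left out. Pecam1 was 0.39 with the same total, 0.29 with quality weights, 0.41 in codes 36 to 42 and -0.51 to 0.14 with 1 library left out. With quantile normalization Ms4a1 was -0.47, Cd79a -0.36, and Kit -0.14, and with the same total Prox1 was 0.29. Apob, called lower (-1.04), was 0.031 and not called with quantile normalization. Gata2 was 0.29 with the same total, 0.10 with quality weights and 0.34 in codes 36 to 42, and Lrat -0.54 in codes 25 to 30. Over 57 genes of the marker lists and all alternatives, 1205 of 1311 results kept their direction and side of the threshold.

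In CLDN1 mAb against Vehicle Control, quality weights gave 2512 genes higher, 2798 lower and 4 of the 10 genes lower, against 0, and no filter gave 2 genes lower. With the replicate block 0 of the 10 genes were called. Relative to pan-endothelial genes, Stab1 was 0.22, Stab2 0.46, Clec4g 0.24, Gpr182 0.035, Dnase1l3 0.13, Cd34 0.055 and Plvap 0.28. In codes 25 to 30, Stab1 was 0.059, Stab2 0.081, Clec4g 0.079, Gpr182 0.23, Dnase1l3 0.18 and Plvap 0.094. With 1 library left out Stab2 was -0.15 to 0.051, Clec4g -0.57 to 0.079 and Plvap -0.43 to 0.020.

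In CLDN1 mAb against Regular diet, 2 of the 10 genes were higher, against 1, with quality weights, relative to pan-endothelial genes, in codes 36 to 42, in a fit to the 2 groups and with the same total. The added gene was Stab1 each time. Over all genes 7063 were higher with the same total, against 4613, and 5183 (quality weights), 175 (relative to pan-endothelial genes), 1554 (codes 25 to 30) and 831 (same total) were lower, against 2634. With the replicate block the 10 genes had 1 higher and 4 lower, as without it. Counts of the 10 genes in settings without a count over all genes are again not read as particular to them. Stab2 was 0.072, Lyve1 0.041, Fcgr2b 0.15 and Plvap 0.12 with the same total. Relative to pan-endothelial genes Stab2 was 0.35, Lyve1 0.32, Fcgr2b 0.43 and Plvap 0.39. Lyve1 was 0.070 in codes 36 to 42 and Plvap 0.11 with quality weights.

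Of levels relative to pan-endothelial genes, Vehicle Control against Regular diet had 4 of the 10 genes higher with quality weights and 3 in codes 36 to 42, against 1, and 1 lower in codes 25 to 30, against 4. CLDN1 mAb against Vehicle Control had 3 higher and 1 lower with quality weights, against 0. CLDN1 mAb against Regular diet had 1 higher with no filter and in codes 25 to 30, 1 to 2 higher with 1 library left out, and 1 lower in codes 25 to 30, against 2 higher and 3 lower. The share of all genes called is not given for these settings, so these counts are not read as particular to the 10 genes. The 5 or 6 mice per group and the spread within groups, with Vehicle Control values up to 25.3-fold apart, limit precision to the printed intervals.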
